A study of Mus musculus with 2 samples.

Results

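Mir143, Mir145a and Mir145b are 3 of the 2202 miRNA genes counted in the adrenal gland of male 5xFAD/CAST mice aged 8 to 10 months, and they were taken by name as markers of smooth muscle and pericytes. The strain name joins a transgenic Alzheimer's disease model to the wild-derived CAST strain, and the labels do not say whether these animals carried the transgene. There were 2 libraries of 1 group, made from gland tissue and RNA below 30 nucleotides. They carry separate sample records and 1 donor record, so the spread between them may be technical in part. No other group was measured, so nothing could be contrasted or tested. The sense strand of miRNA genes held 6783227 reads in replicate 1 and 3084602 reads in replicate 2, and levels are given as CPM, reads scaled to 1000000 of these sense reads.

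Mir143 and Mir145a are known to be cut from a shared transcript that smooth muscle cells and pericytes make under the control of serum response factor and myocardin. In mice lacking them, arterial smooth muscle is known to lose contractile character, and the best known targets of the miR-145 product include the factor KLF4, which represses contractile genes. In the adrenal gland, smooth muscle surrounds the arterioles of the capsule, while the inner gland is drained by thin-walled sinusoids lined by endothelium. The tissue mixes these cells, so fewer cells of a type and less RNA per cell cannot be told apart, and smooth muscle of vessels cannot be told apart from other smooth muscle.

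The RefSeq miRNA table (GRCm38.p6) matched 0 of the 3 genes. The mature products of genes that Mir143 is set against are shown to identify them, with the seed, bases 2 to 8 from the 5′ end, in capitals. They are the endothelial miR-126a, the smooth muscle differentiation miRNA miR-10a, and miR-21a, miR-221 and miR-222, which are known to favour smooth muscle growth. The tables count hairpin genes and not arms, so the arm shown is the better known of each gene.
miR-126a-3p: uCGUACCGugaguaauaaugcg
miR-10a-5p: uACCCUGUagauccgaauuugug
miR-21a-5p: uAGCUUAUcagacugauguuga
miR-221-3p: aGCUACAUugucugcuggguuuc
miR-222-3p: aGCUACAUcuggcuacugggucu
The last pair shares the seed GCUACAU and comes from neighbouring genes of chromosome X.

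Mir143 and Mir145a lie next to each other on the minus strand of chromosome 18 (GRCm38, mm10). Mir143 (ENSMUSG00000065445.3) spans 61649196 to 61649258, a hairpin of 63 bases. Mir145a (ENSMUSG00000065592.2) spans 61647825 to 61647894, a hairpin of 70 bases, and 1301 bases separate the 2 hairpins. Transcription runs from Mir143 towards Mir145a. Neither hairpin overlaps another annotated gene. Carmn, a long noncoding RNA known from smooth muscle, lies 366 bases upstream of Mir143 on the same strand. Bvht, a long noncoding RNA known from heart development in mouse, lies 352 bases beyond Mir145a on the opposite strand. Mir145b (ENSMUSG00000098366.1) lies apart on the same chromosome and strand, at 69022199 to 69022273, with 70670 bases to the nearest annotated gene, the long noncoding RNA 4930546C10Rik. It is therefore no member of the Mir143 and Mir145a pair by position.

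Mir143 was among the most abundant miRNA genes of the gland, Mir145a was of middling abundance and Mir145b was at the limit of detection. Mir143 had 195705 reads in replicate 1 and 77143 reads in replicate 2. These are 28851 CPM (exact 95% interval 28726 to 28978) and 25009 CPM (24835 to 25184), with a mean of 26930 ± 2717 CPM (SD, n = 2). It ranked 10th in replicate 1, 13th in replicate 2 and 12th by the mean. Intervals cover only the counting error of independent reads within a library. No molecular identifiers are given, so copies of a molecule cannot be told apart and that error may be understated.

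Mir145a had 4354 reads in replicate 1 and 1914 reads in replicate 2, which are 642 CPM (623 to 661) and 620.5 CPM (593 to 649). Its mean was 631 ± 15.1 CPM (SD, n = 2), rank 88, with ranks 83 and 90 in replicates 1 and 2. Mir145b had 1 read in each library, 0.147 CPM (0.00373 to 0.821) in replicate 1 and 0.324 CPM (0.00821 to 1.81) in replicate 2. Both values lie under the level of 3 reads, a floor of 0.442 CPM for replicate 1 and of 0.973 CPM for replicate 2. The order Mir143, Mir145a, Mir145b was the same in both libraries, and each gap exceeded the replicate difference of either gene.

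Nearly all reads of the 3 genes belonged to Mir143. Together they held 2.95% of miRNA reads in replicate 1 (Wilson 95% interval 2.94 to 2.96) and 2.56% in replicate 2 (2.55 to 2.58), a mean of 2.76% ± 0.273 (SD, n = 2). Within that sum, Mir143 made up 97.8% (97.8 to 97.9) in replicate 1 and 97.6% (97.5 to 97.7) in replicate 2. In the rank plot, the symbols of Mir143 and Mir145a from the 2 libraries nearly cover each other.

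**Figure D1:**
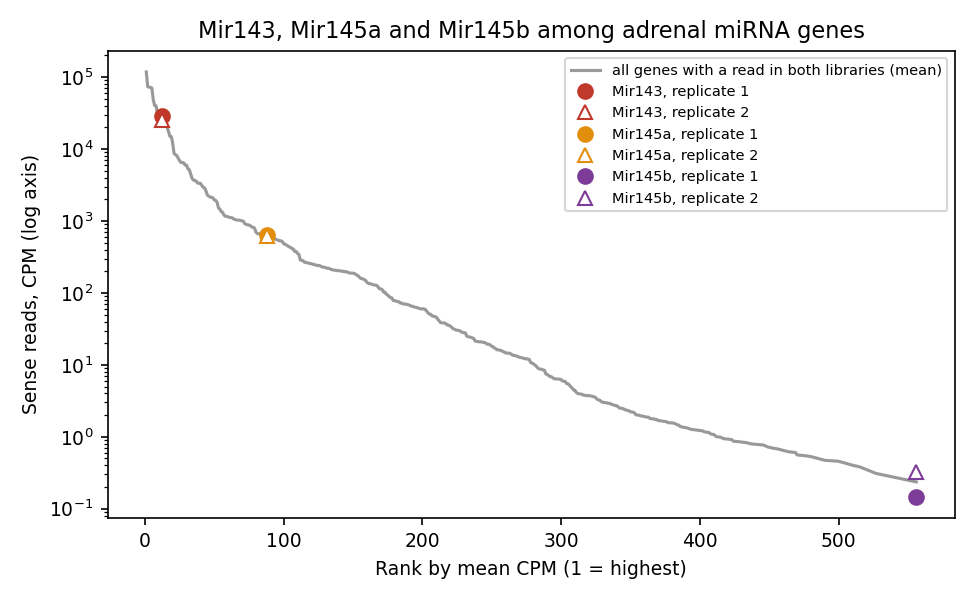
Level of Mir143, Mir145a and Mir145b in each library (CPM, log axis; circles replicate 1, triangles replicate 2) on the curve of mean CPM against rank of all genes with a read in both libraries. Mir143 lies at rank 12 near 26930 CPM, Mir145a at rank 88 near 631 CPM, and Mir145b under 1 CPM.

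The counts of the 3 genes were free of the overlaps that limit many miRNA genes in these tables. No miRNA gene overlaps any of them on the other strand, and their opposite-strand reads were 0 in both libraries. None of the 3 hairpins shares 20 bases with another annotated miRNA hairpin. An exact read of that length or more from 1 of them thus matches no other such hairpin in the sense direction. The rest of the genome was not searched. The longest run of bases common to Mir145a and Mir145b was 17, and the longest run that Mir143 shares with any other miRNA hairpin was 11. Reads of another strain were compared with the mm10 reference, and a CAST variant within a mature sequence could lower a count, which was not tested. Multimapping reads, 30.3% of all reads in replicate 1 and 32.1% in replicate 2, were assigned to no gene.

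Mir143 exceeded Mir145a by a large factor in both libraries. The ratio of their reads was 44.9 in replicate 1 (exact 95% interval 43.6 to 46.3) and 40.3 in replicate 2 (38.5 to 42.2), a mean of 42.6 ± 3.28 (SD, n = 2). Per base of annotated hairpin, Mir143 stood at 458 CPM per base in replicate 1 and 397 in replicate 2, and Mir145a at 9.17 and 8.86. The ratio of mean levels was then 47.4, against 42.7 per gene. Small RNA reads come from the mature arms and not from the whole hairpin, so the value per gene is the one used here. The ratio describes reads, and a difference in how readily each RNA is captured in both libraries would be part of it, which was not tested.

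Mir145a exceeded Mir145b in reads by a factor that a single read fixes poorly. The ratio was 4354 in replicate 1 (exact 95% interval 781 to 172013) and 1914 in replicate 2 (343 to 75638).

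To place the Mir143 and Mir145a pair, it was set beside all pairs of same-strand miRNA genes within 10 kb of each other, both with a mean of at least 10 CPM. There were 353 such pairs, with a median ratio of higher to lower level of 4.86. The ratio of the Mir143 and Mir145a pair was the 63rd highest, so that 17.8% of pairs, itself included, were at least as unequal. The limit of 10 CPM leaves out very unequal pairs with a low gene, such as Mir17 at 818 CPM and Mir19a at 0.604 CPM. Of the 353 pairs, 256 differed at least 2-fold and 121 at least 10-fold. Most pairs lay in the imprinted miRNA region of chromosome 12. Outside it, a limit chosen after seeing the data, 17 of 82 pairs were at least as unequal. Among genes that share no 20 bases with another hairpin, 36 of 245 were. With both limits, 5 of 44 pairs were at least as unequal, with a median ratio of 4.11. Pairs that share a gene are not independent, so these counts are a description.

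The pairs with ratios nearest to 42.7 were Mir351 over Mir450b at 43.7, Mir433 over Mir665 at 43.7, Mir134 over Mir410 at 44.7, Mir411 over Mir667 at 40.0 and Mir485 over Mir412 at 46.9. The most unequal of the 353 pairs were Mir127 over Mir3070b at 1986, Mir322 over Mir450-2 at 1950 and Mir23b over Mir24-1 at 973. In each of these a member shares 20 bases with another hairpin. Mir143, the gene transcribed first, was the higher of its pair, as was the first gene in 193 of the 353 pairs. The plot of neighbouring pairs shows Mir143 and Mir145a on the upper part of a continuous curve.

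**Figure D2:**
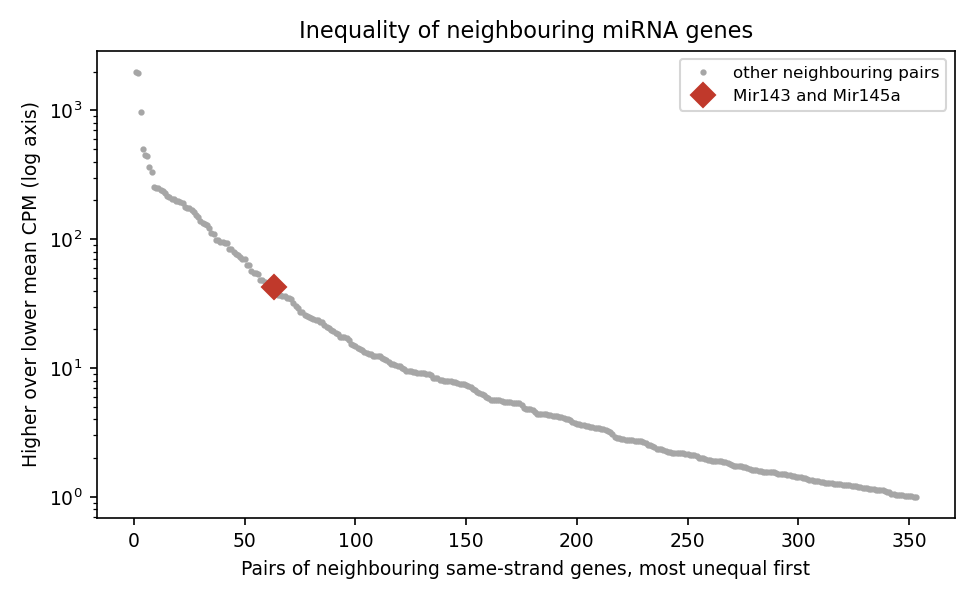
Ratio of higher to lower mean CPM (log axis) for 353 pairs of neighbouring same-strand miRNA genes within 10 kb, both of at least 10 CPM, in order. The Mir143 and Mir145a pair (diamond), at 42.7, is 63rd.

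Mir143 and Mir145a differed little between the replicates. On the scale of log2(CPM + 1), replicate 2 minus replicate 1, Mir143 differed by −0.21 and Mir145a by −0.05. As a ratio of replicate 2 to replicate 1, Mir143 was at 0.867 (exact 95% interval 0.860 to 0.874) and Mir145a at 0.967 (0.916 to 1.02). The interval of Mir145a includes 1 and that of Mir143 lies below 1, so the gap of Mir143 exceeds the counting error of independent reads. Under DESeq2 size factors the differences were −0.34 for Mir143 and −0.19 for Mir145a, where the median of genes of at least 10 CPM was −0.12. An absolute difference of at least 1, which is 2-fold, was found for 10.7% of the 280 genes of at least 10 CPM, and for 0 of the 2 members that reach this level.

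Among these 280 genes the median difference was 0.01 and the median absolute difference 0.276. Mir143 lay near the middle, as 113 genes differed less than it did. Mir145a lay near the bottom, as 21 genes differed less. Of the 20 most abundant genes, 4 differed less than Mir143. Of the 54 other genes within 2-fold of the level of Mir145a, 2 differed less than Mir145a, and their median absolute difference was 0.294.

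The ratio of Mir143 to Mir145a itself moved by −0.16 in log2 between the replicates. Over the 353 neighbouring pairs the median absolute move was 0.417, and 80 pairs moved less than this pair.

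**Figure D3:**
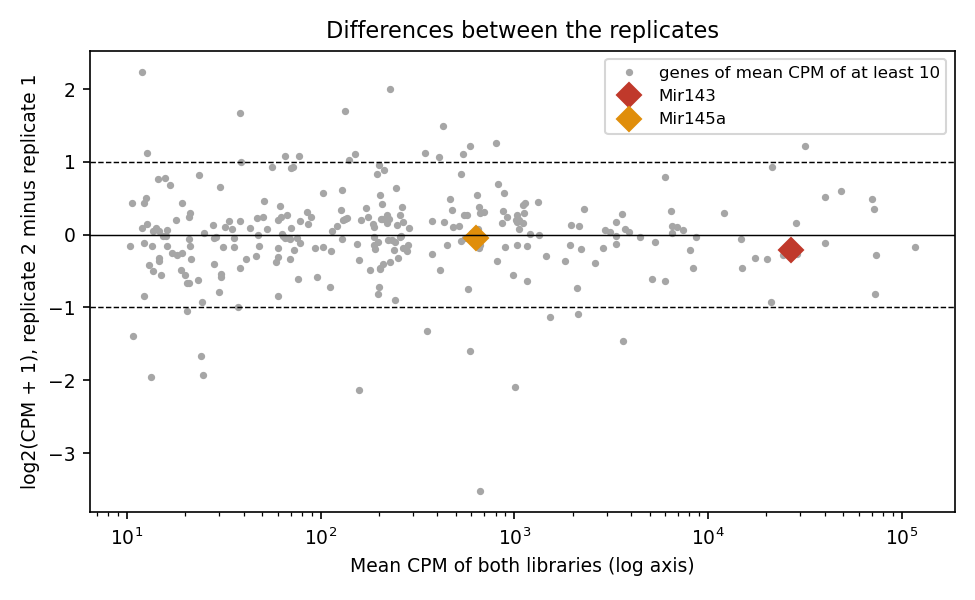
Difference between the replicates (log2(CPM + 1), replicate 2 minus replicate 1) against mean CPM (log axis) for the 280 genes of at least 10 CPM, with dashed lines at a 2-fold difference. Mir143 at −0.21 and Mir145a at −0.05 (diamonds) lie close to 0.

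Mir143 could be ordered against more of the other genes than Mir145a could. A pair of genes was called ordered when both libraries ordered it alike and both gaps in CPM exceeded the replicate difference of either gene. Gaps in CPM depend on level, so the number ordered is no measure of precision. The SD was 10.1% of the mean for Mir143 and 2.4% for Mir145a. Over all pairs of the 280 genes, 75.4% were ordered. Mir143 was ordered against 270 of the 279 others, above 265 and below 5. The 5 above it were Mirlet7g, Mir10a, Mirlet7b, Mir375 and Mirlet7i. It could not be ordered against Mir126a, Mir23a, Mir23b, Mir26b, Mir99a, Mirlet7d, Mir127, Mir139 or Mir10b. Of these, Mir23a and Mir23b have 20 bases in common, so each may be undercounted.

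Mir145a was ordered against 241 of the 279 others, above 177 and below 64. The 38 genes it could not be ordered against had mean levels from 228 CPM for Mir301 to 31702 CPM for Mir26b. Mir26b is in that set because its own level was 19051 CPM in replicate 1 and 44353 CPM in replicate 2, a gap wider than its distance to Mir145a in replicate 1.

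The genes whose levels in both libraries were most like those of Mir143 were Mir99a, Mir127 and Mirlet7d. Likeness was the Euclidean distance of log2(CPM + 1) over the 2 libraries, which was 0.140 for Mir99a, 0.210 for Mir127 and 0.289 for Mirlet7d. Mir99a had 31396 CPM in replicate 1 and 26235 CPM in replicate 2, Mir127 at 26749 and 22081 CPM, and Mirlet7d at 26990 and 30205 CPM. For Mir145a the nearest were Mir425 at a distance of 0.0924, Mir672 at 0.104 and Mir434 at 0.113. Mir425 had 603 CPM in replicate 1 and 610.5 CPM in replicate 2, Mir672 at 626 and 664 CPM, and Mir434 at 693 and 631 CPM. With 2 libraries this measure says little beyond a like level.

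Set beside markers of other cells, Mir143 stood below the endothelial Mir126a and the neuroendocrine Mir375 by the mean. It lay above the other listed neuroendocrine genes, which had means of 4479 CPM for Mir7b, 242 CPM for Mir7-1 and 128 CPM for Mir7-2. Mir7-1 and Mir7-2 share 20 bases with another hairpin and may be undercounted. Mir143 had more assigned reads than each listed marker of fibroblasts, leukocytes and striated muscle in both libraries. Mir126a, which is known to guard vessel integrity, had levels of 92610 and 52519 CPM in replicates 1 and 2. Mir143 was 0.312 of Mir126a in replicate 1 (exact 95% interval 0.310 to 0.313) and 0.476 in replicate 2 (0.472 to 0.480). The ratio was thus 1.53 times as high in replicate 2. Both genes were lower there, with log2 differences of −0.21 for Mir143 and −0.82 for Mir126a. Mir145a moved the same way against Mir126a, at 0.00693 in replicate 1 and 0.0118 in replicate 2.

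Against Mir375, a miRNA of neuroendocrine cells, Mir143 moved the other way. Mir143 was 0.491 of Mir375 in replicate 1 (0.489 to 0.494) and 0.303 in replicate 2 (0.301 to 0.306), while Mir375 itself had levels of 58717 and 82443 CPM. The log2 difference of Mir375, replicate 2 minus replicate 1, was 0.49, and that of Mir7-2 was 0.34. The other listed neuroendocrine genes did not rise, at −0.04 for Mir7b and −0.10 for Mir7-1, so the rise was not shared by the whole list. The erythroid Mir451a was lower in replicate 2, with 5351 CPM in replicate 1 and 1949 CPM in replicate 2. Its companion Mir144 was at 191 and 187 CPM. The part of unequal cell content of the samples in the small gap of Mir143 was not tested.

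Markers of fibroblasts, another mesenchymal cell type, had fewer assigned reads than Mir143. The 4 genes of that list summed to 381 CPM in replicate 1 and 843 CPM in replicate 2, so the sum of Mir143, Mir145a and Mir145b was 77.3 times as high in replicate 1 and 30.4 times as high in replicate 2. Mir214 made up nearly all of that sum, with 355 and 831 CPM in replicates 1 and 2, a log2 difference of 1.22. Mir199b went the other way, with 21.7 and 4.86 CPM, a log2 difference of −1.95. The remaining 3 of the list, all Mir199 genes, have 20 bases in common with further hairpins and may be undercounted. In mixed tissue, the ratios to this list do not show which cells gave the reads of Mir143. The 4 leukocyte genes summed to 610 and 693 CPM, led by Mir142 at 249 and 282 CPM.

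Markers of striated muscle, which also uses serum response factor, had few assigned reads. Of these 9 markers, 7 had 0 reads in both libraries, as did 68.1% of all 2202 miRNA genes. Mir206, a skeletal muscle miRNA, had 25 reads in replicate 1 and 11 in replicate 2, which are 3.69 and 3.57 CPM, and Mir499, found in heart and slow muscle, had 12 and 2 reads. Mir208a and Mir208b, which lie in cardiac myosin genes, were at 0 and share no 20 bases with other hairpins. The other 5 at 0, the Mir1a and Mir133 genes, share 20 bases with near copies, so their 0 sets no upper limit.

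**Figure D4:**
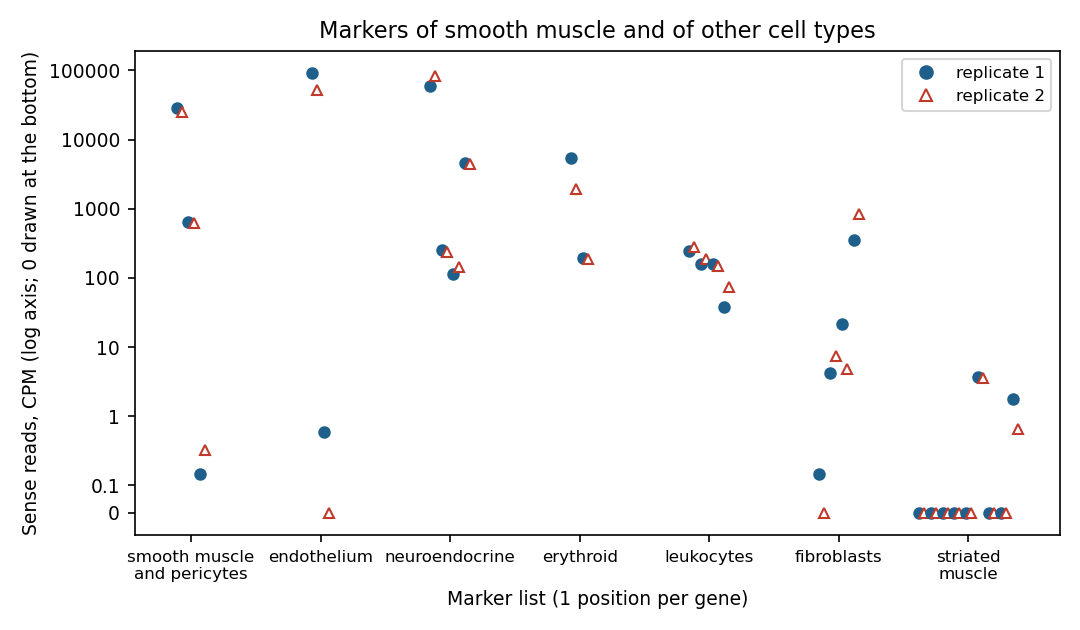
Level of each marker gene (CPM, log axis, 0 drawn at the bottom) in replicate 1 (circles) and replicate 2 (triangles), by cell type list. Mir143, first of the smooth muscle list, lies between 25009 and 28851 CPM, and the striated muscle genes lie under 4 CPM.

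Among other miRNAs known to act in smooth muscle, Mir143 was exceeded in assigned reads by Mir10a alone of the 15 listed. Of the 6 further genes on the contractile side, Mir10a, which is known to promote smooth muscle differentiation from mouse embryonic stem cells, had 80981 CPM in replicate 1 and 66529 CPM in replicate 2. It is also broadly expressed in posterior tissues as a gene of the Hoxb region, so its level is no measure of smooth muscle. Mir204 had 64.0 CPM in replicate 1 and 56.1 CPM in replicate 2. The remaining 4 of that list are the Mir1a and Mir133a genes already described at 0.

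The 9 genes known to favour the growing or synthetic state of smooth muscle each had fewer assigned reads than Mir143 in both libraries. They summed to 6757 CPM in replicate 1 and 5024 CPM in replicate 2, so that the sum of Mir143, Mir145a and Mir145b was 4.37 and 5.10 times as high. The gland mixes cell types, so these ratios are no measure of the state of its smooth muscle. Mir21a, induced in injured rat arteries, led the list with 3090 CPM in replicate 1 and 3166 CPM in replicate 2, and Mir143 was 9.34 times as high in replicate 1 (exact 95% interval 9.20 to 9.47) and 7.90 times in replicate 2 (7.73 to 8.07). Mir146 followed at 1412 and 912 CPM and shares 20 bases with another hairpin.

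Mir145a stood among these growth-related genes rather than above them. Mir31, known to promote growth of rat smooth muscle cells, had 1230 CPM in replicate 1 and 106 CPM in replicate 2. Mir221, which represses the cell cycle inhibitor p27, had 719 CPM in replicate 1 and 429 CPM in replicate 2, above Mir145a in replicate 1 and below it in replicate 2. Its seed mate Mir222 had 73.1 CPM in replicate 1 and 83.6 CPM in replicate 2. Mir145a could not be ordered against Mir146, Mir221 or Mir31. Of the 9 genes, all of at least 10 CPM, 1 was at least 2-fold higher in replicate 2 and 1 at least 2-fold lower, beside 17 higher and 13 lower (10.7% in all) of the 280 genes. Of the 9, 5, the Mir24 and Mir26a genes and Mir146, share 20 bases with another hairpin and may be undercounted.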

How the data were processed

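MicroRNA sequencing covered 2 adrenal gland libraries of 1 group. The authors deposited, per library, whole-number read counts per miRNA gene in 3 unlabelled columns, taken from their layout and totals as both strands, sense and opposite strand. Per the file headers deposited beside them, assembly mm10 and annotation M21 were used. What aligner was run, and with what trimming and mismatch limits, is not given in the sources used here. Mapping lines were left out of totals.

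GENCODE M21 supplied names, positions and hairpins. Sense counts were scaled to 1000000 sense reads. Exact intervals for ratios are conditional binomial intervals at 95%. Replicate differences used a pseudocount of 1 CPM over genes with a mean of 10 CPM or more. They are described without a test. Their 2-fold rule was tried on simulated counts with counting error only, after the known shift in scaling was subtracted. Alternatives included TMM factors (edgeR 4.0.16) and DESeq2 1.42.0 size factors. Other work used Python 3.11.15 and R 4.3.3.

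Members, lists and rules were chosen with earlier results of these data known. Named were the members, the 3 nearest genes to Mir143 and to Mir145a, leading genes of each list, and the 5 nearest and 3 most unequal pairs. Genes that could not be ordered against Mir143, and a few others from the lists, were named after their values were seen.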

Additional observations from a re-analysis of the deposited data

How the results depend on the processing

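The results rest on 2 libraries, so their spread is poorly known. Leaving out a library gave 25009 to 28851 CPM for Mir143, 620.5 to 642 CPM for Mir145a, 0.147 to 0.324 CPM for Mir145b, a joint share of 2.56% to 2.95%, a Mir143 to Mir145a ratio of 40.3 to 44.9, a Mir143 to Mir126a ratio of 0.312 to 0.476, ranks of 10 to 13 for Mir143 and 83 to 90 for Mir145a, and 61 to 62 pairs at least as unequal. Scaled to all reads, Mir143 stood at 13358 and Mir145a at 312 reads per 1000000, and the joint share was 1.37%, by construction of the larger total. Scaled to all uniquely mapped reads, Mir145a stood at 588 per 1000000. The column for both strands gave 30284 CPM for Mir143, 709 CPM for Mir145a, 3.10% for the share and rank 79 for Mir145a. It gave a Mir143 to Mir126a ratio of 43619, because reads of Mir126a overlap the opposite-strand Mir126b there and are set aside as ambiguous. Without genes sharing 20 bases, Mir145a ranked 73rd, since fewer genes are ranked. Per base of hairpin the Mir143 to Mir145a ratio was 47.4.

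The replicate difference of Mir143 was −0.32 scaled to all reads, −0.31 with TMM factors and −0.34 with DESeq2 size factors, and that of Mir145a was −0.16, −0.15 and −0.19 in the same order. These scalings put the median of genes of at least 10 CPM at −0.09 (TMM) and −0.12 (DESeq2), and the direction held for both genes in all 5 alternatives. The DESeq2 factors, 1.414 for replicate 1 and 0.7071 for replicate 2, were computed with no filter on low counts. The 30 genes that differed at least 2-fold, 17 of them higher in replicate 2, became 29 with 12 higher under TMM and 25 with 8 higher under DESeq2. They became 58 of 703 genes with no filter and 19 of 173 at 100 CPM or more. Pairs at least as unequal as Mir143 and Mir145a numbered 25 of 144 within 3 kb, 120 of 727 within 50 kb, 16 of 158 at 100 CPM or more and 36 of 245 without genes sharing 20 bases. Outside the imprinted region of chromosome 12, an alternative chosen after seeing the data, they numbered 17 of 82. No paired analysis was possible because there is 1 group. Depth leaves Mir145b undetermined under 3 reads.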
